A study of Homo sapiens with 4 samples.

Results

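The RAB GTPase family apart from RAB38 and its subfamily relatives RAB32 and RAB29 was examined in LN229 cells after RAB38 was silenced, to ask whether another RAB was present at a higher transcript level when RAB38 was low. Members were the rows of the array table whose gene symbol is RAB followed by a number and at most 1 letter and 1 further digit. This gave 57 of the 22458 rows that carry a gene symbol, and all 57 symbols were matched by gene ID to the same symbol in RefSeq. LN229 is an established human glioblastoma line. The arrays measured total RNA of cells transfected with a RAB38-specific siRNA pool (siRAB38, n = 2 arrays) or with a non-targeting siRNA pool (NT, n = 2 arrays). In both groups transfection was done without serum, serum was added at 24 h to 1.5%, and RNA was extracted at 48 h. Whether the 2 arrays of a group stem from separate cultures is not stated, so p-values reflect array-to-array spread that may be technical. Values are RMA log2 expression, a normalised probe signal. They are compared between arrays for 1 gene and not between genes, since probes differ in brightness.

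RAB proteins are small GTPases that mark membranes and direct vesicle traffic. A RAB is delivered to its membrane with prenyl groups on its tail, is switched on by an exchange factor that loads GTP, recruits effectors such as tethers and motors, and is switched off by a GTPase-activating protein. RAB38 and RAB32 act in the formation of lysosome-related organelles, of which the melanosome is the best known, and in melanocytes each can partly stand in for the other. RAB29, also called RAB7L1, belongs to the same subfamily and is known as a partner of the kinase LRRK2.

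RAB38, the silenced gene, had 2.52 and 3.43 log2 units in siRAB38, against 4.69 and 4.78 in NT. The siRAB38 arrays both lay below both NT arrays and were far apart from each other, siRAB38 replicate 1 being the lower. The log2 fold change was -1.76 (95% confidence interval -2.53 to -0.99), which left 29.6% of the NT level. RAB32 had 3.28 and 3.49 in siRAB38 and 3.55 and 3.43 in NT, overlapping values with a log2 fold change of -0.11 (95% confidence interval -0.43 to 0.21). RAB29 had 6.02 and 6.12 in siRAB38 and 5.85 and 5.85 in NT, with both siRAB38 arrays above both NT arrays, a log2 fold change of 0.22 and an unadjusted limma p of 0.093.

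No RAB passed an adjusted p of 0.05 in limma with Benjamini-Hochberg adjustment over all 22458 rows, and neither did any other row (0%). RAB38 itself did not, at an adjusted p of 0.72. The methods' t-test also called no row after the same adjustment. Unadjusted, 1 of the 57 members (1.75%) had a p under 0.05 and a higher value in siRAB38, against 842 of all rows (3.75%), and 3 members (5.26%) had a p under 0.05 and a lower value, against 697 of all rows (3.1%). The higher member was RAB30, and the 3 lower members were RAB21, RAB8B and RAB36. An exact permutation test of 2 arrays against 2 cannot give a two-sided p below 0.333, so the comparisons rest on the limma fit and on the arrays themselves.

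RAB30, a RAB of the Golgi apparatus that is needed for its normal structure, stood apart from the rest of the family. Its log2 values were 4.66 and 4.71 in siRAB38, against 3.86 and 3.81 in NT. The arrays of each group lay close together and the groups were well separated. The means were 4.69 ± 0.04 in siRAB38 and 3.84 ± 0.04 in NT (SD, n = 2 each), a log2 fold change of 0.85 (SE 0.10, 95% confidence interval 0.58 to 1.11) or a level 1.80-fold that of NT (1.50 to 2.16). The unadjusted p was 3.92e-04, rank 10 among the 22458 rows, and the adjusted p from limma was 0.70. In absolute log2 fold change RAB30 stood at percentile 99.8 of all rows. RAB30 kept an unadjusted p under 0.05 in each of the 11 alternative settings tried, 4 of which leave out 1 array, but its adjusted p stayed between 0.33 and 0.97 across them.

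The chromosome around RAB30 holds a second transcript that was measured. RAB30-DT is a long non-coding RNA that starts 169 bases upstream of the first RAB30 start and runs the other way, and it was looked up after the RAB30 values had been seen, as were the other genes named in this paragraph. It had log2 values of 5.17 and 5.19 in siRAB38, against 4.89 and 4.92 in NT. The groups did not overlap here either, but the difference was smaller than for RAB30, with a log2 fold change of 0.27 (SE 0.10, 95% confidence interval 0.01 to 0.53) and an unadjusted limma p of 0.043. SNORA70E, a small nucleolar RNA inside RAB30, had a log2 fold change of -0.24 with overlapping arrays. DDIAS, a coding gene near RAB30, had a log2 fold change of -0.13 and an unadjusted limma p of 0.289.

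The 250 bases upstream of RAB30, which take in the start of RAB30-DT, are shown with the same stretch upstream of RAB21 and of RAB8B, the lower members with the smallest unadjusted p that have an entry in the RefSeq promoter table. RAB36 has no entry. Sequences are from RefSeq on GRCh38.p14, each read along the strand of its gene up to the base before the start, and for RAB30 the most upstream of 3 listed starts was used. The RAB30 region is chr11:83071898-83072147 on the minus strand, the RAB21 region chr12:71754613-71754862 on the plus strand and the RAB8B region chr15:63189356-63189605 on the plus strand. Capitals mark the E-box CACGTG, the CCAAT box (CCAAT or, on the other strand, ATTGG) and the GC box (GGGCGG or, on the other strand, CCGCCC).
RAB30: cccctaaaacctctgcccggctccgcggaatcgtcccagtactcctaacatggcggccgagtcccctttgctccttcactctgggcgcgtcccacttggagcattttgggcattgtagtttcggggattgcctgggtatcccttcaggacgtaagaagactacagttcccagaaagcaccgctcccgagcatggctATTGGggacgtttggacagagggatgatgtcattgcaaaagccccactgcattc
RAB21: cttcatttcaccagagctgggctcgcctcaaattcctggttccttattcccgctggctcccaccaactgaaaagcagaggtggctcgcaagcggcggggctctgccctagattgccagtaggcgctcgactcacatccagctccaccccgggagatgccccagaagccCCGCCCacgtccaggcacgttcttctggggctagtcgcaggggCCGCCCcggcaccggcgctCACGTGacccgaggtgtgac
RAB8B: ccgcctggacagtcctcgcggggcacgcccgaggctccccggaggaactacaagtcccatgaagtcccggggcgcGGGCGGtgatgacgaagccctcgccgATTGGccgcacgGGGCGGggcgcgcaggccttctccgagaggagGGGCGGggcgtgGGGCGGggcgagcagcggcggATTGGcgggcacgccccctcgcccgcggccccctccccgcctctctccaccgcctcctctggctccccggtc
The RAB30 region holds 1 CCAAT box and none of the other 2 motifs, at a GC content of 56.4%. The RAB21 region holds 1 E-box and 2 GC boxes at 64.8% GC, and the RAB8B region holds 2 CCAAT boxes and 4 GC boxes at 77.2% GC.

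Such motifs are common, and a match describes letters, not a bound site. Of the 57 members, 45 have a promoter entry. A CCAAT box lay in the 250 bases before at least 1 start of 13 members (28.9%), against 40.2% of 15842 coding genes, and before 32.0% of all 35116 listed starts. Shares of members and of coding genes count a gene with the motif before any of its starts. The share of all starts counts each start alone and is not in the same unit. An E-box was found for 5 members (11.1%), against 9.73% of coding genes and 6.34% of all starts, and the 5 were RAB21, RAB24, RAB31, RAB4A and RAB5A. A GC box was found for 38 members (84.4%), against 62.1% of coding genes and 42.6% of all starts. The AP-1 site TGACTCA, searched on both strands, was found for RAB13, RAB27B, RAB34, RAB3B and RAB5B, which is 11.1% of members against 4.58% of coding genes and 4.20% of all starts. The cAMP response element TGACGTCA was found for RAB25 (2.22% of members), against 2.73% of coding genes and 1.65% of all starts. RAB21 and RAB8B, both lower in siRAB38, shared the GC box, which most members hold, and differed in the other 2.

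**Figure D1:**
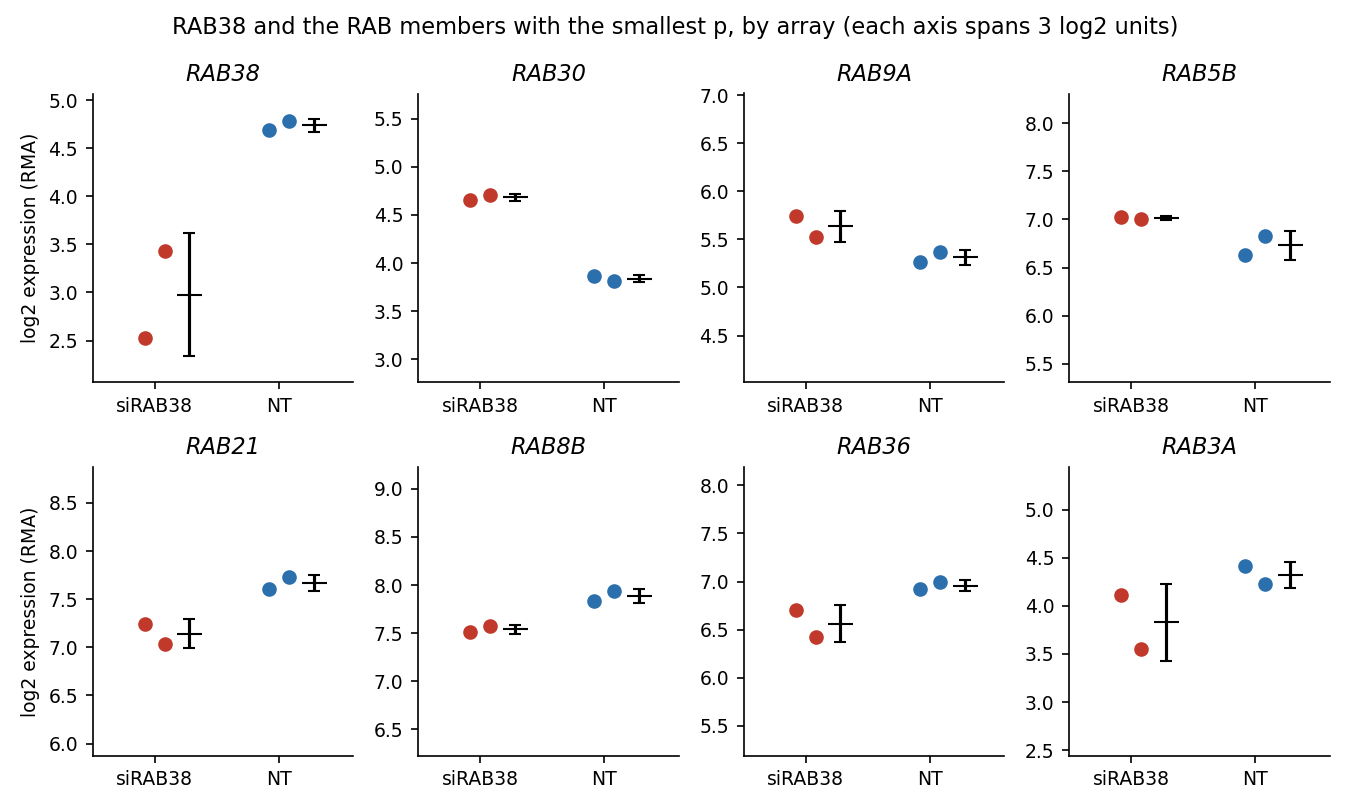
Log2 expression (RMA) of RAB38 and of 7 RAB members in each siRAB38 array and each NT array (n = 2 each), with each axis spanning 3 log2 units; dots are arrays and the bars are mean and SD. RAB30 is higher in both siRAB38 arrays (4.66 and 4.71) than in both NT arrays (3.86 and 3.81), while for RAB3A the siRAB38 arrays are 4.11 and 3.55.

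RAB30 belongs to the members of the ER and Golgi, the largest role group with 18 members. Of these 9 were higher and 9 lower, and the median log2 fold change was -0.02 and the range -0.39 to 0.85. RAB36, a Golgi RAB that binds the adaptor RILP, was at the lower end. It had 6.701 and 6.427 in siRAB38, against 6.920 and 6.996 in NT. The groups did not overlap, with siRAB38 replicate 2 the lowest array, and the log2 fold change was -0.39 (SE 0.13, 95% confidence interval -0.74 to -0.05, unadjusted p 0.032). RAB36 passed an unadjusted p of 0.05 in 6 of the 11 alternative settings, and without siRAB38 replicate 2 its log2 fold change was -0.26. RAB1A and RAB1B, which carry out ER-to-Golgi transport, had log2 fold changes of 0.03 and 0.10, and RAB18, a RAB of lipid droplets and the ER, of 0.02. RAB1B was 10.57 and 10.22 in siRAB38 and 10.26 and 10.32 in NT, and RAB1A was 8.61 and 8.70 in siRAB38 and 8.53 and 8.73 in NT, so that arrays overlapped for both.

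RAB2A, which also acts between ER and Golgi, had a small difference with very close replicates, at 7.08 and 7.10 in siRAB38 and 7.26 and 7.25 in NT. Its log2 fold change was -0.17 with an unadjusted limma p of 0.162, while the methods' t-test, which does not share the spread of other genes, gave 0.00476. RAB6A, a RAB of traffic from the Golgi, had 8.192 and 8.017 in siRAB38, against 7.876 and 7.998 in NT. These arrays did not overlap, by a narrow gap, and the log2 fold change was 0.17 (unadjusted p 0.224). Its brain-enriched paralogue RAB6B was the other way, at -0.19 (4.43 and 4.54 in siRAB38, 4.59 and 4.76 in NT). The values of RAB6C and RAB6D are uncertain, since these copies are nearly identical to RAB6A and probes may be shared. RAB6C had 2.75 and 3.31 in siRAB38 and 3.33 and 3.30 in NT, so 1 siRAB38 array lay below the other 3, and the log2 fold change was -0.28. RAB39B, known for a role in neurons, had 2.67 and 2.84 in siRAB38 and 2.84 and 3.09 in NT, a log2 fold change of -0.21, and RAB33A, a relative of a Golgi RAB that acts in autophagy, had 2.30 and 2.24 in siRAB38, against 2.21 and 2.05 in NT, a log2 fold change of 0.14.

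Among the 7 members of the early endosome, 3 were higher and 4 lower, the median log2 fold change lying near 0. Both siRAB38 arrays lay above both NT arrays for 2 of them and below for 2, against 18.8% and 17.2% of all rows. RAB21, which binds integrins and carries them through early endosomes, was the lowest of the family. It had 7.25 and 7.04 in siRAB38, against 7.61 and 7.73 in NT. The siRAB38 arrays both lay below both NT arrays. The log2 fold change was -0.53 (SE 0.13, 95% confidence interval -0.85 to -0.21), or 69.4% of the NT level, with an unadjusted p of 0.00815 and an adjusted p of 0.72 from limma. It passed an unadjusted p of 0.05 in 10 of the 11 alternative settings, and with each array left out the log2 fold change lay between -0.63 and -0.42.

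The RAB5 proteins drive the fusion of early endosomes, and their 3 genes did not share a direction. RAB5B had 7.029 and 7.002 in siRAB38, against 6.625 and 6.832 in NT, a log2 fold change of 0.29 (95% confidence interval -0.02 to 0.59, unadjusted p 0.062). RAB5C had 9.10 and 8.93 in siRAB38, against 9.20 and 9.10 in NT, a log2 fold change of -0.14. RAB5A had overlapping arrays and a log2 fold change of 0.08. RAB5B thus lay above NT in both arrays and RAB5C just below it, and neither interval excluded 0. RAB20, known from phagosome maturation, had 2.76 and 2.98 in siRAB38 and 2.63 and 2.62 in NT, a log2 fold change of 0.24 (unadjusted p 0.100). RAB22A, which sorts cargo at early endosomes, had 8.07 and 7.86 in siRAB38 and 7.93 and 8.01 in NT, with a 95% confidence interval of -0.32 to 0.31 for the log2 fold change.

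The members of the late endosome, lysosome and autophagosome are those nearest to the compartment in which RAB38 is known to act. Of these 5, 3 were higher and 2 lower, with a median log2 fold change of 0.07. RAB9A, which returns mannose 6-phosphate receptors from late endosomes to the Golgi and takes part in melanosome formation, had 5.75 and 5.52 in siRAB38, against 5.26 and 5.37 in NT. Its arrays did not overlap, and the log2 fold change was 0.32 (SE 0.13, 95% confidence interval -0.005 to 0.65, unadjusted p 0.052). With each array left out in turn it lay between 0.21 and 0.43. RAB7A, the main RAB of late endosomes and lysosomes, had 11.12 and 10.91 in siRAB38 and 11.02 and 11.04 in NT. These arrays overlapped, with a log2 fold change of -0.02 (95% confidence interval -0.33 to 0.29). RAB24, which acts in autophagy, had 5.32 and 5.23 in siRAB38, against 5.13 and 5.18 in NT, a log2 fold change of 0.12, and RAB12, a RAB of recycling endosomes and lysosomes, had 7.06 and 7.33 in siRAB38 and 7.07 and 7.18 in NT, a log2 fold change of 0.07.

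Exocytosis and regulated secretion held 12 members, 4 higher and 8 lower, with a median log2 fold change of -0.05. RAB8B, which with RAB8A carries cargo to the plasma membrane, had 7.51 and 7.57 in siRAB38, against 7.84 and 7.94 in NT. The groups did not overlap and the log2 fold change was -0.35 (SE 0.11, 95% confidence interval -0.62 to -0.07, unadjusted p 0.023), with an unadjusted p under 0.05 in 8 of the 11 alternative settings. RAB8A had 7.79 and 7.57 in siRAB38 and 7.73 and 7.84 in NT, overlapping arrays with a log2 fold change of -0.10. The difference between these paralogues was not tested. RAB3A, the synaptic vesicle RAB, had 4.11 and 3.55 in siRAB38, against 4.42 and 4.23 in NT. One siRAB38 array lay well below the other 3, and the log2 fold change of -0.49 (95% confidence interval -1.03 to 0.05, unadjusted p 0.067) was -0.21 without siRAB38 replicate 2. RAB3A had an unadjusted p of 0.034 with the replicate number as a block, the only setting in which its p was under 0.05 other than the fit without siRAB38 replicate 1.

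RAB27A, which tethers melanosomes and secretory granules and is the secretory RAB closest in function to RAB38, had 5.16 and 4.80 in siRAB38 and 5.21 and 5.07 in NT. The arrays overlapped and the log2 fold change was -0.17 (95% confidence interval -0.57 to 0.23). Its paralogue RAB27B had a log2 fold change of -0.06. RAB13, a RAB of cell junctions, had 9.06 and 8.90 in siRAB38, against 8.71 and 8.83 in NT, without overlap and with a log2 fold change of 0.21 (unadjusted p 0.131). RAB10, of the same branch of the family and known for moving glucose transporters to the cell surface, had 8.32 and 8.31 in siRAB38 and 8.26 and 8.39 in NT, a log2 fold change of -0.01 with a 95% confidence interval of -0.28 to 0.27.

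In the remaining groups the arrays overlapped for 14 of 15 members, against 14376 of all 22458 rows. Recycling endosomes held 8 members, 2 higher and 6 lower, with a median log2 fold change of -0.07. RAB11A, which controls the return of receptors to the cell surface, was the 1 member whose arrays did not overlap, at 7.24 and 7.23 in siRAB38 and 7.32 and 7.34 in NT, a log2 fold change of -0.09 (unadjusted limma p 0.411, against 0.0111 in the methods' t-test). RAB11B had 8.30 and 7.97 in siRAB38 and 7.93 and 8.10 in NT, and RAB14, which acts between the Golgi and endosomes, had 8.06 and 8.24 in siRAB38 and 8.23 and 8.30 in NT. RAB25, an epithelial relative of RAB11, had 1.49 and 1.52 in siRAB38 and 2.10 and 1.41 in NT, and its log2 fold change of -0.25 was 0.0903 without NT replicate 1. The group of cilium, ubiquitin ligase and less studied members held 7, of which 4 were higher and 3 lower, with a median log2 fold change of 0.02. RAB23, an inhibitor of Hedgehog signalling, had 5.34 and 5.53 in siRAB38 and 5.51 and 5.66 in NT, and RAB40C, part of a ubiquitin ligase, had 5.167 and 4.995 in siRAB38 and 4.994 and 5.240 in NT. RAB42, a dim row, had 1.51 and 1.70 in siRAB38 and 1.51 and 1.26 in NT, a log2 fold change of 0.22. RAB44 had the same value of 2.02 in 3 of the 4 arrays.

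**Figure D2:**
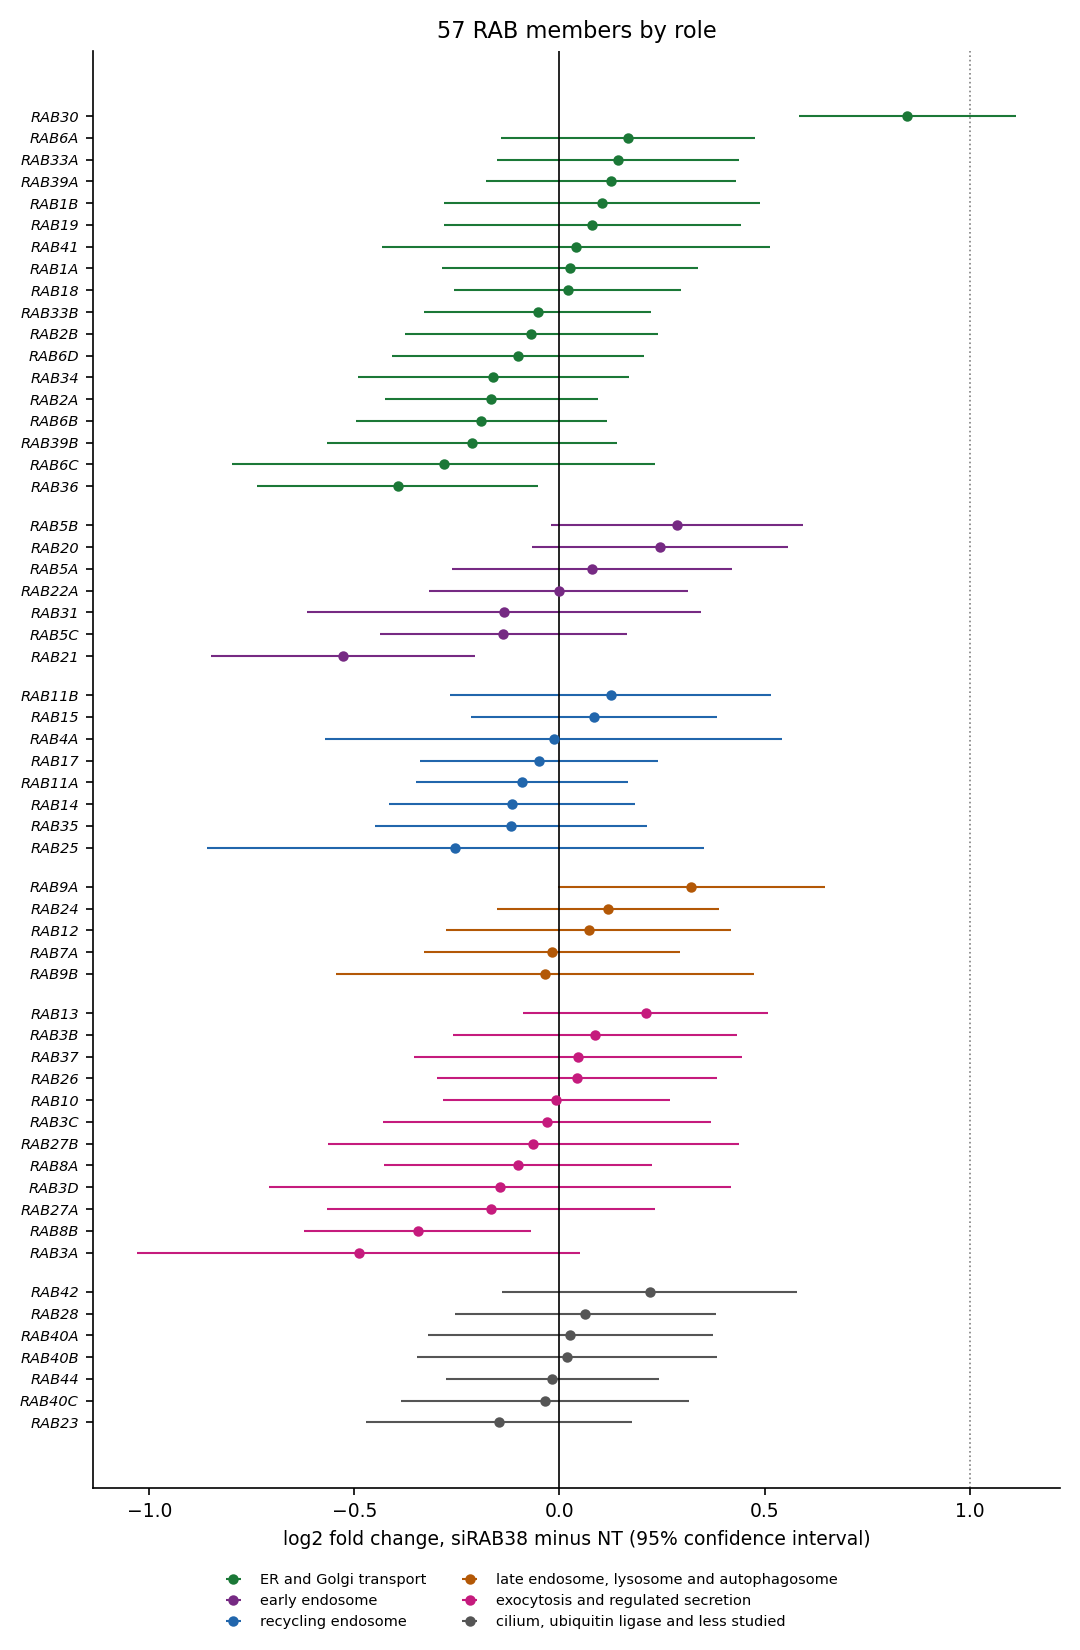
Log2 fold change, siRAB38 minus NT, with its 95% confidence interval from limma for each of the 57 RAB members, grouped by role; the dotted line marks a log2 fold change of 1. RAB30 lies at 0.85 with an interval of 0.58 to 1.11, and RAB21 lies lowest at -0.53.

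As a family, the 57 members were centred close to all rows. Their median log2 fold change was -0.02 (quartiles -0.13 and 0.08), against 0.01 (quartiles -0.11 and 0.12) over all rows, and the median absolute log2 fold change was 0.10 for members and 0.11 for all rows. Of the members 25 were higher and 32 lower in siRAB38, while 51.5% of all rows were higher and 48.4% lower. The mean deviation of the members from their own average was 0.01 and -0.03 in the siRAB38 arrays and -0.01 and 0.03 in the NT arrays, so the groups overlapped. Both siRAB38 arrays lay above both NT arrays for 8 members (14%), against 18.8% of all rows. These were RAB30, RAB9A, RAB5B, RAB20, RAB13, RAB6A, RAB33A and RAB24. Both lay below both NT arrays for 9 members (15.8%), against 17.2% of all rows, and the arrays of the other 40 overlapped. These shares were close to or below the background in both directions.

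The intervals give the size of a higher level that these arrays would have left possible. For 56 of the 57 members (98.2%) the upper 95% limit of the log2 fold change was under 1, that is, under a doubling, as it was for 98.3% of all rows, and RAB30 was the exception. The upper limit was under 0.5 for 48 members (84.2%), against 75.8% of all rows. For 55 members (96.5%) the whole interval lay within 1 of 0, against 96.7% of all rows, the exceptions being RAB30 and RAB3A. The 9 members with an upper limit of 0.5 or more were RAB30, RAB9A, RAB5B, RAB20, RAB13, RAB42, RAB11B, RAB4A and RAB41. Downwards, the lower limit was over -0.5 for 44 members (77.2%), against 78.3% of all rows. These limits are for each gene alone and are not adjusted for the number of genes. Like the p-values, they reflect array-to-array spread that may be technical, and may then be too narrow for separate cultures. The signals of 8 members, RAB39A, RAB6D, RAB19, RAB41, RAB42, RAB40A, RAB44 and RAB25, were among the dimmest 30% of rows, where RMA compresses differences.

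**Figure D3:**
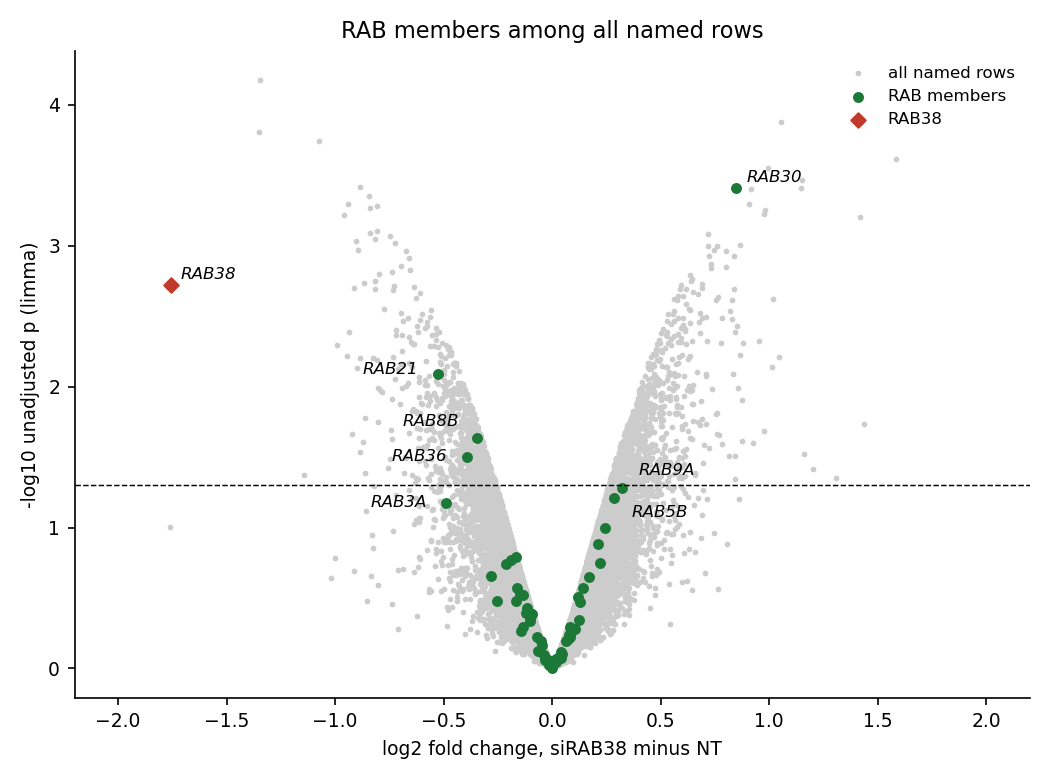
Log2 fold change, siRAB38 minus NT, against -log10 of the unadjusted limma p for all 22458 named rows (grey), the 57 RAB members (green) and RAB38 (red); the dashed line marks a p of 0.05. RAB30 is the 1 member above the line on the higher side, and RAB21, RAB8B and RAB36 are above it on the lower side.

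The genes that load, switch and read RAB proteins were examined in 5 lists, in which 132 of 141 genes were measured. Of these 81 were higher and 51 lower, with a median log2 fold change of 0.04. Over all rows 51.5% were higher and 48.4% lower. An unadjusted p under 0.05 was found for 2 higher and 4 lower genes, against 3.75% of all rows higher and 3.1% lower. None passed the adjusted threshold in limma. Both siRAB38 arrays lay above both NT arrays for 36 of the 132 genes and below for 23, against 18.8% and 17.2% of all rows. Of the factors that prenylate RABs and keep them soluble, 6 of 8 were measured and none had an unadjusted p under 0.05. RABGGTB, the catalytic subunit of the RAB geranylgeranyl transferase, had 7.05 and 6.83 in siRAB38, against 7.15 and 7.40 in NT, a log2 fold change of -0.33 (unadjusted p 0.070). Its partner subunit RABGGTA was at -0.16, the escort protein CHML at 0.23 and RABAC1, a membrane receptor for prenylated RABs, at 0.15.

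Among 47 measured exchange factors, of 50 listed, 29 were higher and 18 lower (median log2 fold change 0.03), and 0 higher and 3 lower genes had an unadjusted p under 0.05, against 3.75% and 3.1% of all rows. RIN2, which activates RAB5, had 4.58 and 4.44 in siRAB38, against 5.04 and 4.86 in NT, a log2 fold change of -0.44 (unadjusted p 0.016). RINL, of the same family, had 2.30 and 2.50 in siRAB38, against 2.78 and 2.86 in NT, a log2 fold change of -0.42 (unadjusted p 0.018). Another RIN gene, RIN3, lay the other way and had 6.43 and 6.25 in siRAB38, against 6.04 and 6.09 in NT, a log2 fold change of 0.27 (unadjusted p 0.064). DENND2A, an exchange factor for RAB9A, had 2.33 and 2.26 in siRAB38, against 2.82 and 2.66 in NT, a log2 fold change of -0.45 (unadjusted p 0.011). The groups did not overlap for any of these 4 genes, which were picked for having the smallest unadjusted p of the list. Over the 47 genes, both siRAB38 arrays lay above both NT arrays for 12 and below for 8, against 18.8% and 17.2% of all rows.

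GTPase-activating proteins were measured for 34 of 35 genes, with 22 higher and 12 lower and a median log2 fold change of 0.04. None had an unadjusted p under 0.05, against 3.75% of all rows higher and 3.1% lower. Both siRAB38 arrays lay above both NT arrays for 13 of the 34 and below for 4, against 18.8% and 17.2% of all rows. The 4 genes of this list with the smallest p were TBC1D7, a subunit of the TSC complex, at 0.25, TBC1D19 at -0.25, TBC1D17 at 0.23 and EVI5L at 0.21. Effectors and kinases were measured for 38 of 40 genes, with 25 higher and 13 lower and a median of 0.05. MICALL1, which binds several RABs on tubular recycling endosomes, had 7.30 and 7.12 in siRAB38, against 6.82 and 6.74 in NT, a log2 fold change of 0.43 (unadjusted p 0.015). RAB11FIP4, a RAB11 effector, had 5.26 and 4.75 in siRAB38, against 4.50 and 4.42 in NT, a log2 fold change of 0.54 (unadjusted p 0.034). Neither overlapped between groups, and for RAB11FIP4 siRAB38 replicate 1 lay well above the other 3 arrays. Over the 38 genes, both siRAB38 arrays lay above both NT arrays for 9 and below for 6, against 18.8% and 17.2% of all rows. RAB11FIP1 had a log2 fold change of 0.28 and RILPL2 of -0.25, both with an unadjusted p over 0.05.

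RAB-like proteins, which share the RAB fold, were measured for 7 of 8 genes, with 3 higher and 4 lower. RABL2B, a ciliary GTPase, had 6.13 and 5.97 in siRAB38, against 6.63 and 6.67 in NT. The groups were well separated, and the log2 fold change was -0.60 (SE 0.11, 95% confidence interval -0.89 to -0.31, unadjusted p 0.003). The value is uncertain, since RABL2B has a nearly identical copy, RABL2A, which may share its probes and has no row of its own here. The intraflagellar transport subunits IFT27 and IFT22, which are also of this type, had log2 fold changes of 0.32 and -0.10, and RABL3 had -0.24.

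**Figure D4:**
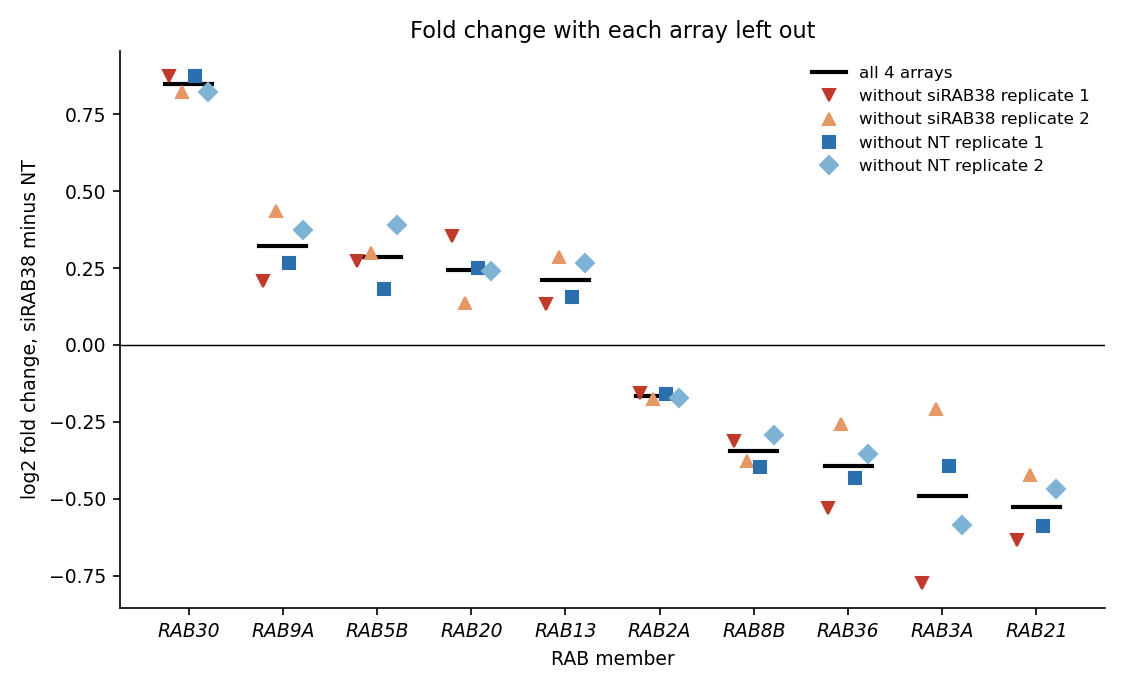
Log2 fold change, siRAB38 minus NT, of 10 RAB members with all 4 arrays (black bars) and with each array left out in turn (symbols). RAB30 stays between 0.82 and 0.87, while RAB3A runs from -0.77 to -0.21.

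Members differed in how far they moved when 1 array was left out. RAB30 stayed between 0.82 and 0.87, RAB21 between -0.63 and -0.42, RAB8B between -0.40 and -0.29 and RAB36 between -0.53 and -0.26. Of the 57 members, 24 kept the sign of the log2 fold change in all 4 such fits. With NT replicate 1 or NT replicate 2 left out, 1 lower member had an unadjusted p under 0.05, where 3 had it with all arrays. With siRAB38 replicate 1 or siRAB38 replicate 2 left out, 2 higher members had it in place of 1. RAB30 was among the higher members each time.

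Other properties of the arrays moved with the groups or with single arrays. The 24 genes of G1/S and DNA replication were lower in siRAB38 for 23, for 21 without overlap, against 17.2% of all rows, and a list mean of 7.56 and 7.56 in siRAB38, against 7.76 and 7.81 in NT. Of 20 measured interferon response genes 19 had a lower mean in siRAB38, but the arrays overlapped for all 20, with list means of 6.12 and 7.54 in siRAB38 and 7.87 and 6.87 in NT. Of the 12 markers of glioma lines 7 were higher and 5 lower, the arrays overlapped for 7, and 1, SLC1A3, was among the dimmest 30% of rows. The 15 markers of other cell types had list means of 3.39 and 3.32 in siRAB38 and 3.36 and 3.30 in NT. Of these 8 were higher and 7 lower, and the arrays overlapped for 12. The dimmest 30% of rows held 7 of the 15, while CD68 and KRT18 were bright, at percentiles 92.7 and 83.7 of mean signal. SNAP25, a neuronal fusion protein, was at 6.68 and 6.77 in siRAB38 and 6.09 and 6.09 in NT. The other neuronal markers listed, SYP and RBFOX3, had log2 fold changes of -0.22 and 0.08 with overlapping arrays. The part of these differences in the RAB values was not tested. In bulk RNA, fewer cells of a kind and less RNA per cell cannot be told apart.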

How the data were processed

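RNA of 2 siRAB38 and 2 NT samples was labelled with biotin (WT Plus kit) and hybridised to Affymetrix arrays. The authors deposited 1 table of log2 values made with RMA (background correction, quantile normalization and summary of probes), per the submitters' processing notes with affy 1.60.0 in R 3.5.1. The probe definition and genome build are not given in the sources used here. RMA hides a shift shared by all genes. Of 23786 rows, 22458 had 1 gene symbol in the platform annotation. Groups came from sample titles. Deposited log2 values were fitted with limma 3.58.1 in R 4.3.3 (lmFit, eBayes without trend, prior degrees of freedom 3.15) and adjusted by Benjamini-Hochberg over the 22458 rows. The number of arrays limits the precision. The script was tested on simulated data. Members, role groups and lists were chosen with earlier results of these data known. Values were given for RAB30, the 8 higher and 8 lower members of smallest p, the 2 brightest and 2 most different members of each role group, and up to 4 genes per list. Protein sequences were not used here. Tables were read with pandas 2.3.3 in Python 3.11.15, and motifs were searched in RefSeq sequence of GRCh38.p14. Alternatives covered normalization, dim rows, rows tested, the variance prior, the test, the replicate number as a block and leaving out each array.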

Additional observations from a re-analysis of the deposited data

How the results depend on the processing

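No row and no RAB member passed an adjusted p of 0.05 in limma in any of the 11 settings, the t-test included; with all arrays 842 higher and 697 lower rows had an unadjusted p under 0.05. With 1 array left out, higher rows at that unadjusted p numbered 504 to 919 and lower rows 416 to 705, the lowest of each without NT replicate 1. Higher RAB members at that p numbered 2 after quantile normalization again, 3 with trend and robust in eBayes and 1 to 2 with an array left out, and lower members 1 to 4 with an array left out. The family median log2 fold change lay between -0.0687 without NT replicate 1 and 0.0155 without NT replicate 2. Members close to 0 changed sign. After quantile normalization again RAB10 was at 0.0022, RAB22A at 0.0043 and RAB7A at 0.0073. With an array left out RAB1A ran from -0.0744 to 0.126, RAB25 from -0.60 to 0.0903, RAB10 from -0.0704 to 0.0537, RAB22A from -0.11 to 0.10, RAB40C from -0.16 to 0.0871, RAB11B from -0.0417 to 0.29, RAB1B from -0.0732 to 0.28, RAB12 from -0.0640 to 0.21 and RAB7A from -0.13 to 0.0904; the cause was not tested. Of the values of named members over all settings, 302 of 317 kept their direction. This count is no measure of stability, since settings that change only the rows, the variance prior, the test or the block leave the fold change unchanged. Same-numbered arrays did not deviate together (correlation -0.0546). Whether the numbers pair the samples is not stated, and 1 difference between arrays per group cannot decide it. With the replicate block, 667 higher and 582 lower rows had an unadjusted p under 0.05, and RAB30 had 0.00239, RAB21 0.0230, RAB8B 0.0369 and RAB3A 0.0336, at an adjusted p of 0.798 from limma. The 8 dim members give no value once the dimmest 30% of rows are left out.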
